A study of Rattus norvegicus with 10 samples.

Results

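Hemidesmosomes, laminin-332 and the integrins that bind it fasten the basal cells of an epithelium to its basement membrane. The genes described here are Lama3 and Lamb3, which encode chains of laminin-332, the integrin subunit genes Itga6, Itgb4, Itga3, Itga2 and Itgb1, the transmembrane collagen gene Col17a1 and the plectin gene Plec. They were found by symbol, as the probe sets that the platform annotation assigns to 1 of these genes and to no other. This gave 12 probe sets for 8 of the 9 genes, out of 31042 probe sets and 14217 named genes. Itga6 had 4 probe sets, Itgb1 had 2 and the other 6 genes had 1 each. Itga2, whose product pairs with integrin β1 to bind collagen, was not analysed here for expression.

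The arrays came from 2 groups of male F344/N rats, 5 animals in each, aged 5 to 6 weeks at the start. The treated animals received N,N-dimethyl-p-toluidine (DMPT), an aromatic amine used to speed the setting of acrylic cements, at 120 mg/kg/day in corn oil by gavage on 5 consecutive days. The vehicle animals received corn oil alone. Transitional epithelium of the nasal cavity was cut from sections by laser capture, and amplified RNA from each animal was hybridised to 1 array. All values are RMA expression values on a log2 scale, and differences are DMPT minus vehicle on that scale, so that 1 unit is a 2-fold change.

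In a hemidesmosome, the integrin made of an α6 and a β4 subunit holds laminin-332 on the outside of the cell and plectin on the inside. Plectin and dystonin connect the β4 tail to keratin filaments, and type XVII collagen, the product of Col17a1, spans the membrane beside the integrin. The β1 integrins bind laminin-332 or collagen and attach to actin through focal adhesions. Inherited loss of laminin-332, integrin α6β4, plectin or type XVII collagen causes blistering of skin and mucosa in people. In the airway, several of these genes are strongest in the basal cells, which are also the stem cells of the epithelium.

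Over all probe sets, array medians lay between 8.21 and 8.35, and arrays give no read depth, so the number of animals limits the precision. Vehicle replicate 2 stood apart from its group, with a mean correlation of 0.975 with the other vehicle arrays, against 0.985 to 0.986 for the others. The probe ratio used as a sign of RNA quality (the 3' minus 5' log2 difference of GAPDH and beta-actin control probe sets) ran from 0.873 to 1.30 in DMPT arrays and from 1.17 to 1.50 in vehicle arrays. Epithelial genes were bright on every array: the mean level of 8 genes, among them Epcam, Cdh1 and Krt8, lay between 12.98 and 13.06 after DMPT and between 12.43 and 12.83 with vehicle. In tissue of this kind, fewer cells of a type and less RNA per cell cannot be told apart.

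After DMPT, 3 of the 12 probe sets were higher, 0 were lower and 9 did not pass the test. The 3 were a pair for Itga6 and the single one for Col17a1, each with a difference near 0.59, or 1.50-fold. The test was limma, and p-values were adjusted by the Benjamini-Hochberg method across the 31042 probe sets and called under 0.05. It called 11.1% of all probe sets, 5.37% higher and 5.74% lower. With each gene counted once, by its brightest probe set, 1 of the 8 genes was called (Col17a1), and 13.9% of all genes were, so the share of genes called was near that of the whole array. At an unadjusted p under 0.05, 7 probe sets were higher and 1 was lower. The share of all probe sets under that unadjusted limit was not counted, so these counts cannot be compared with the whole array. The median difference was 0.29 over the 12 probe sets, 4 of which were of Itga6, and -0.017 over all probe sets. With each gene read by its brightest probe set, the medians were 0.23 for the members and -0.0052 for all genes. Differences were above 0 for 10 of the 12, which share genes, and for 46.7% of all probe sets. The dimmest of the 12 was brighter on average than 55.7% of probe sets, and probe sets of like brightness were not compared. The 8 epithelial genes had a median difference of 0.35, with 7 above 0, so a lean upward was not particular to the members.

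**Figure D1:**
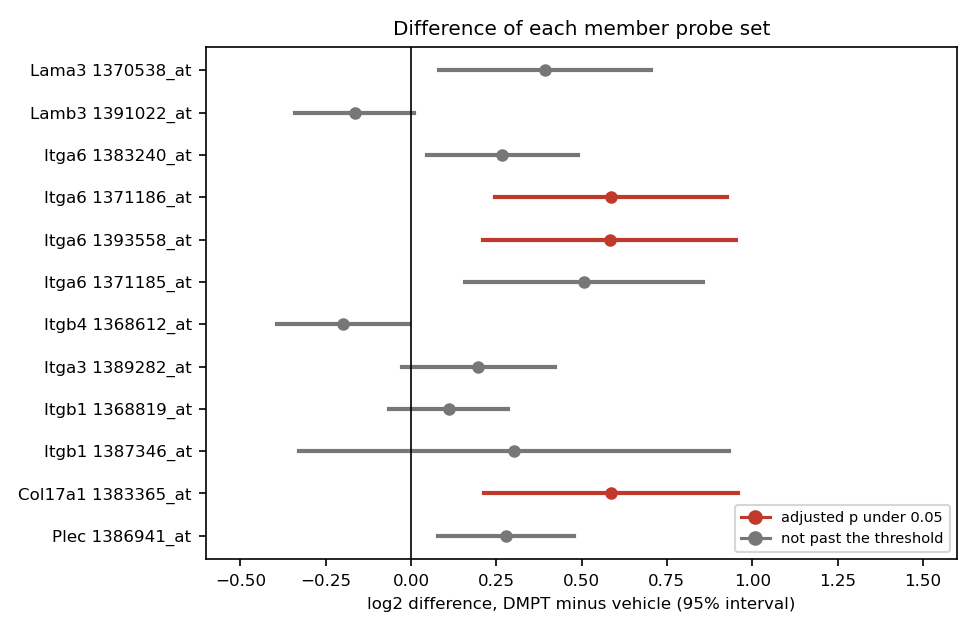
Difference of each of the 12 probe sets, as log2 DMPT minus vehicle (points) with the 95% interval from the limma fit (lines), 5 arrays per group; red marks an adjusted p under 0.05. All 4 probe sets of Itga6 lie to the right of 0, whereas Itgb4 and Lamb3 lie to the left, and no point reaches a difference of 1.

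Laminin-332 is a cross-shaped protein of several chains, and the differences of the 2 chains described here had opposite signs, neither passing the test. Lama3, which encodes the α3 chain that integrins grip, had log2 values of 9.86, 9.50, 9.39, 9.19 and 9.94 in DMPT replicates 1 to 5. In vehicle replicates 1 to 5 it had 9.30, 9.07, 9.19, 9.28 and 9.07. All DMPT arrays but replicate 4 lay above every vehicle array, and the DMPT arrays were the more spread (SD 0.32, against 0.11 with vehicle). The difference of 0.39 ± 0.14 (standard error), with a 95% interval from 0.082 to 0.70, did not pass (adjusted p = 0.105 by limma). Without DMPT replicate 4 it was 0.49 and passed (adjusted p = 0.0472 by limma), and it did not pass under the other 9 omissions, with differences from 0.30 to 0.44. A fit that included the RNA ratio gave 0.24 (adjusted p = 0.417 by limma).

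Lamb3 encodes the β3 chain, which is made almost only for laminin-332. It had 11.48, 11.43, 11.45, 11.53 and 11.46 in DMPT replicates 1 to 5, and 11.80, 11.62, 11.60, 11.63 and 11.53 in vehicle replicates 1 to 5. Every DMPT array lay below every vehicle array, but the nearest arrays, DMPT replicate 4 and vehicle replicate 5, nearly met. The difference was small, at -0.17 ± 0.080 (95% interval from -0.34 to 0.0086), and did not pass (adjusted p = 0.228 by limma). Groups that do not overlap were found for 2 of the 12 probe sets, the other being one of Itga6, and for 11.0% of all probe sets.

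The bases before the start of the laminin genes are shown because the differences of these chains of 1 protein had opposite signs, and those of Col17a1 because it passed the test. Each sequence holds the 250 bases before the gene start in the RefSeq table for GRCr8, read 5′ to 3′ along the gene. They are Lama3 at chr18:3952517-3952766 (plus strand), Lamb3 at chr13:107362303-107362552 (plus strand) and Col17a1 at chr1:256518858-256519107 (minus strand). Capitals mark TGANTCA, a motif bound by AP-1 factors, which reads the same on both strands. It was searched after the expression values had been seen.
Lama3: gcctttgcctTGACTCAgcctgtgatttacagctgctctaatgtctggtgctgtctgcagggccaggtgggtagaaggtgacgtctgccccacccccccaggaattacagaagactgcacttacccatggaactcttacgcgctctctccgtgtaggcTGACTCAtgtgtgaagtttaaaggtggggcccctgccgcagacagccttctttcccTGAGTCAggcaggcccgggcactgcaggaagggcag
Lamb3: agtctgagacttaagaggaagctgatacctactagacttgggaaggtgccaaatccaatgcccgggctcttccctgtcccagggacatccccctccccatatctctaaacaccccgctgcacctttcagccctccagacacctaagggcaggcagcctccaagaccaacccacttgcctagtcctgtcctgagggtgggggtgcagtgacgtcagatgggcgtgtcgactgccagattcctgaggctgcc
Col17a1: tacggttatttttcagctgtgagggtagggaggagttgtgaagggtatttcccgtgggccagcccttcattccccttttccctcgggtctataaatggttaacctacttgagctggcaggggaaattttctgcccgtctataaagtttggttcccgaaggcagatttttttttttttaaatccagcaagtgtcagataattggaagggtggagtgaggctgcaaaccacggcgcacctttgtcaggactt
The Lama3 window holds the motif 3 times, starting 240, 92 and 36 bases before the gene start. It occurs at least once in 6.34% of the 33469 windows in the table and at least 3 times in 5 of them. The windows of Lamb3, Col17a1, Itga3, Itga2 and Itgb1 hold no TGANTCA. No window was available for Itga6, Itgb4 and Plec, so these genes were not searched. Other motifs of AP-1 factors were not searched, so the windows cannot be compared for AP-1 motifs in general. A match of letters is not a measured site, and these windows say nothing of regulation elsewhere.

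The α6 and β4 subunits form the laminin receptor of the hemidesmosome. The 4 probe sets of Itga6 were all higher on average after DMPT, by between 0.27 and 0.59, and 2 of them passed. The probe set 1371186_at had 11.33, 10.70, 10.80, 10.76 and 11.18 in DMPT replicates 1 to 5, and 10.69, 10.03, 10.49, 10.26 and 10.37 in vehicle replicates 1 to 5. Each DMPT array lay above each vehicle array, though the lowest of them, DMPT replicate 2, only just cleared vehicle replicate 1. The difference was 0.59 ± 0.16, or 1.50-fold (adjusted p = 0.0324 by limma). The call was lost without any of DMPT replicates 1, 3 and 5 or vehicle replicates 2, 4 and 5, with differences from 0.49 to 0.67 and adjusted p from 0.0248 to 0.0794 over the 10 omissions.

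The second called Itga6 probe set, 1393558_at, had 9.29, 8.84, 9.08, 8.83 and 9.30 in DMPT replicates 1 to 5, and 8.89, 7.95, 8.52, 8.42 and 8.65 in vehicle replicates 1 to 5. The groups overlapped at vehicle replicate 1, which lay above DMPT replicates 2 and 4, and vehicle replicate 2 was the lowest array. The difference was 0.58 ± 0.17 (adjusted p = 0.0478 by limma), and of the 10 omissions of 1 array, that of vehicle replicate 1 alone kept the call, with differences from 0.45 to 0.68 and adjusted p from 0.0277 to 0.111.

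The remaining Itga6 probe sets did not pass. The probe set 1371185_at differed by 0.51 ± 0.16 (adjusted p = 0.0639 by limma), with 8.63 to 9.24 after DMPT and 7.99 to 8.82 with vehicle. It passed without vehicle replicate 3 (0.61, adjusted p = 0.0278 by limma), the highest vehicle array. The brightest one, 1383240_at, had 12.02, 11.73, 11.86, 11.85 and 11.72 in DMPT replicates 1 to 5, and 11.79, 11.58, 11.58, 11.51 and 11.36 in vehicle replicates 1 to 5, and differed by 0.27 ± 0.10 (adjusted p = 0.118 by limma). In that probe set only vehicle replicate 1 reached into the DMPT range. The platform annotation used here does not give which part of the transcript each probe set reads.

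Itgb4, the obligate partner of α6 in the hemidesmosome, had 11.94, 11.87, 11.87, 11.66 and 11.95 in DMPT replicates 1 to 5, and 12.17, 12.09, 12.09, 11.93 and 12.02 in vehicle replicates 1 to 5. Vehicle replicate 4 was the single vehicle array within the DMPT range. The difference of -0.20 ± 0.088 (95% interval from -0.39 to -0.0061) did not pass (adjusted p = 0.187 by limma), nor under the omission of any single array. The groups in the plot of values by array are thus ordered one way for Itga6 and the other way for Itgb4.

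**Figure D2:**
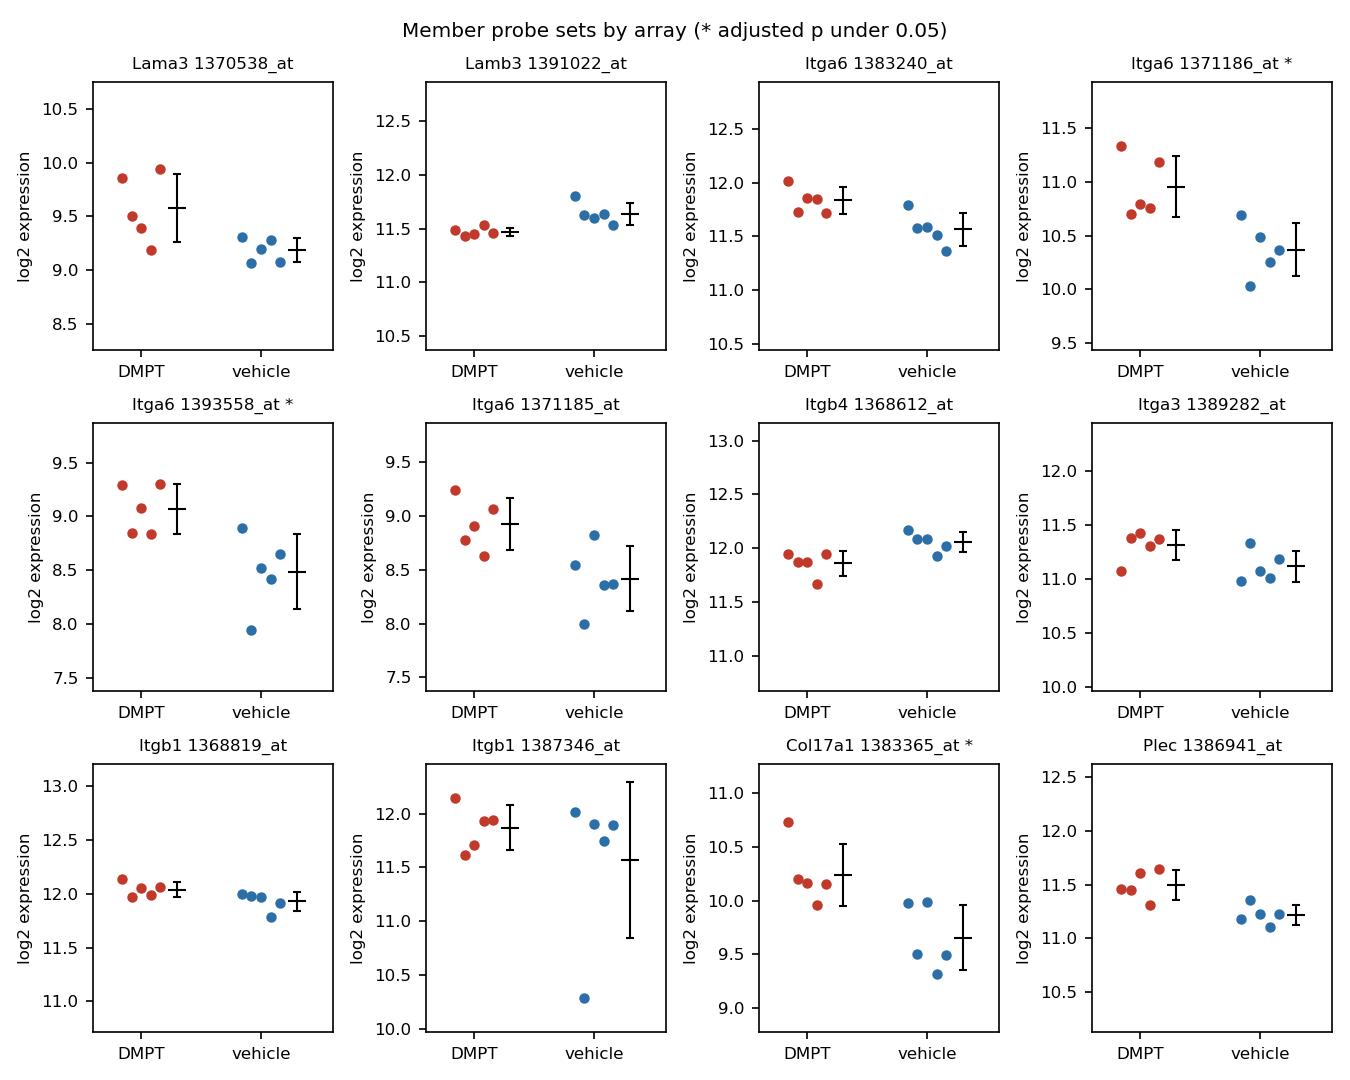
Log2 expression in each array for the 12 probe sets, DMPT in red and vehicle in blue, with replicates 1 to 5 from left to right in each group and the mean ± SD of 5 arrays beside them. Every panel spans the same number of log2 units; an asterisk marks an adjusted p under 0.05. The low vehicle point of Itgb1 1387346_at, at 10.28, is replicate 2.

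Subunits of 1 protein were read on the same arrays, so their difference can be followed array by array. The pairs were chosen after the values had been seen, so these differences are a description with no test, and each gene was read by its brightest probe set. Itga6 minus Itgb4 averaged -0.026 ± 0.17 after DMPT and -0.49 ± 0.11 with vehicle (SD, n = 5 each), and was higher in 5 of 5 DMPT arrays than in any vehicle array. The shift between the group means was 0.47, and 0.71 to 0.78 with the other Itga6 probe sets. Itga6 and Itgb4 differed in opposite directions, so subtraction adds up the sizes of their differences. How many other gene pairs hold the groups apart was not counted.

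Lama3 minus Lamb3 averaged -1.89 ± 0.33 after DMPT and -2.45 ± 0.078 with vehicle (SD, n = 5 each), a shift of 0.56. DMPT replicate 4, at -2.34, lay beside vehicle replicate 4, at -2.35, and the other DMPT arrays were at -2.06 or above. The third pair, Itga3 minus Itgb1, averaged -0.73 ± 0.19 after DMPT and -0.81 ± 0.15 with vehicle (SD, n = 5 each), and its shift of 0.087 was smaller than either SD. Without DMPT replicate 1, that shift was 0.17. None of Lama3, Lamb3, Itgb4 and the Itga6 probe set used here passed the test on its own. Levels of different probe sets are not comparable, so only the shift between the groups can be read.

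**Figure D3:**
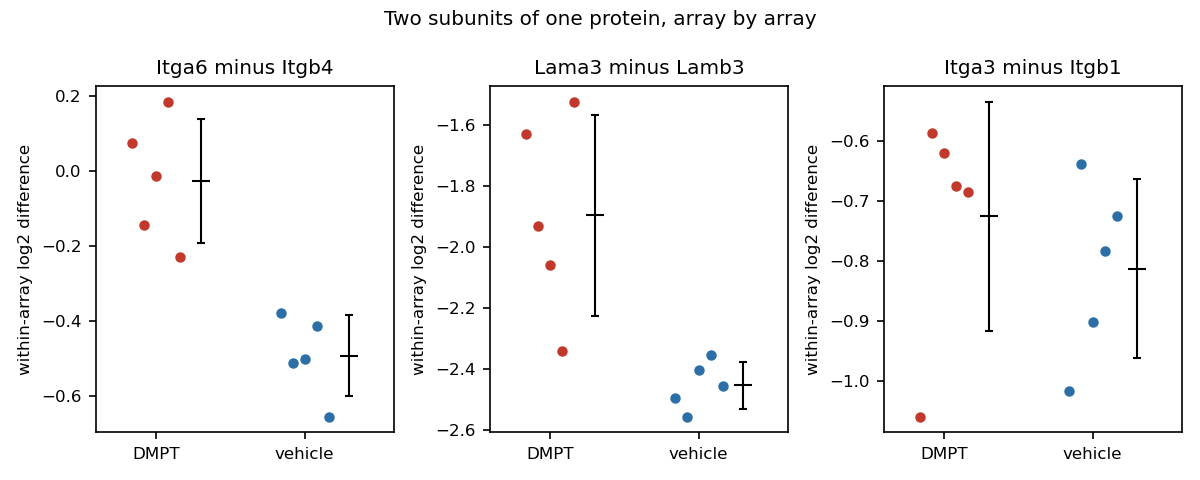
Within-array log2 difference of 2 subunits (first named gene minus second), DMPT in red and vehicle in blue, with replicates 1 to 5 from left to right and the mean ± SD of 5 arrays. The groups are apart for Itga6 minus Itgb4 and, by a small gap, for Lama3 minus Lamb3, and overlap for Itga3 minus Itgb1. The vertical scales differ, and other gene pairs were not compared.

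Itga3 and Itgb1 encode the integrin that binds laminin-332 outside hemidesmosomes, and neither gene passed. Itga3 had 11.07, 11.38, 11.43, 11.31 and 11.37 in DMPT replicates 1 to 5, and 10.98, 11.34, 11.07, 11.01 and 11.19 in vehicle replicates 1 to 5. DMPT replicate 1 lay low among its group, and vehicle replicate 2 high among its own. The difference was 0.20 ± 0.10, with a 95% interval from -0.026 to 0.42 (adjusted p = 0.265 by limma).

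Itgb1, the common β subunit, was read by 2 probe sets, and neither passed. The probe set 1368819_at lay between 11.97 and 12.13 after DMPT and between 11.79 and 12.00 with vehicle, and differed by 0.11 ± 0.080, with a 95% interval from -0.064 to 0.28 (adjusted p = 0.450 by limma). The probe set 1387346_at had 12.15, 11.61, 11.71, 11.93 and 11.94 in DMPT replicates 1 to 5, and 12.01, 10.28, 11.91, 11.75 and 11.90 in vehicle replicates 1 to 5. Its difference of 0.30 ± 0.29 (adjusted p = 0.586 by limma) rested on vehicle replicate 2, without which it was -0.020.

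Col17a1 and Plec complete the hemidesmosome on its membrane and cytoplasmic sides. Col17a1 had 10.73, 10.20, 10.17, 9.96 and 10.15 in DMPT replicates 1 to 5, and 9.98, 9.50, 9.98, 9.32 and 9.50 in vehicle replicates 1 to 5. DMPT replicate 1 was the highest array, and DMPT replicate 4 lay just below vehicle replicates 1 and 3. The gene rose by 0.59 ± 0.17, or 1.50-fold (adjusted p = 0.0472 by limma). The call held when DMPT replicate 4, vehicle replicate 1 or vehicle replicate 3 was left out, and was lost under each of the other 7 omissions, with differences from 0.46 to 0.67 and adjusted p from 0.0347 to 0.103. It was lost with array weights as well (0.45, adjusted p = 0.0843 by limma).

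Plec, the linker between integrin β4 and keratin filaments, had 11.46, 11.45, 11.61, 11.31 and 11.65 in DMPT replicates 1 to 5, and 11.18, 11.35, 11.22, 11.11 and 11.22 in vehicle replicates 1 to 5. The groups met at DMPT replicate 4 and vehicle replicate 2. The difference of 0.28 ± 0.092 did not pass (adjusted p = 0.0755 by limma), and of the 10 omissions it passed in that of vehicle replicate 2 (0.31, adjusted p = 0.0399 by limma). It passed with array medians subtracted, array weights or an intensity trend (adjusted p from 0.0414 to 0.0489 by limma). It did not without the dimmest quartile of probe sets (adjusted p = 0.0624 by limma) or in the fit that included the RNA ratio (adjusted p = 0.135 by limma).

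Among the DMPT arrays, replicate 1 had the highest value for 6 of the 12 probe sets and replicate 5 for 4, and replicate 4 had the lowest for 6. Among the vehicle arrays, replicate 1 was highest for 8 and replicate 2 lowest for 5. When the RNA ratio was entered as a covariate, 0 of the 12 probe sets passed by limma: the Itga6 probe sets 1371186_at and 1393558_at differed by 0.39 and 0.37 (adjusted p = 0.164 and 0.236), and Col17a1 by 0.55 (adjusted p = 0.149). What this ratio, which differed between the groups, contributes to the differences was not tested beyond that fit.

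Hemidesmosome partners that were not members went both ways, with 1 of 7 measured genes higher and 2 lower. By brightest probe set, 7.13% of all genes were called higher and 6.77% lower. Krt5, a basal keratin that hemidesmosomes anchor, had 13.02 to 13.41 after DMPT and 12.45 to 12.86 with vehicle, and rose by 0.60 ± 0.11 (adjusted p = 0.00537 by limma). Krt14, also a basal keratin of this list, differed by 0.096 ± 0.10 and did not pass (adjusted p = 0.637 by limma). Col7a1, which encodes the anchoring fibrils below the basement membrane, had 9.06 to 9.46 after DMPT and 9.51 to 10.18 with vehicle, and fell by 0.61 ± 0.15 (adjusted p = 0.0201 by limma, and 0.0549 without DMPT replicate 3). Dst, the gene of dystonin, fell by 0.39 ± 0.089 in its brightest probe set (adjusted p = 0.0168 by limma). Its other 4 probe sets differed by between -0.22 and -0.00052 and did not pass, and the mean of all 5 differed by -0.18 (adjusted p = 0.274 by limma). Cd151, a tetraspanin that accompanies α6 and α3 integrins, differed by 0.19 ± 0.092 and did not pass (adjusted p = 0.228 by limma). The median difference of the 7 genes was -0.022, against -0.0052 over all genes.

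The other basement membrane genes also went both ways, with 2 of 20 higher, 2 lower and a median difference of 0.0014. Col4a1, a chain of the type IV collagen network, differed most, with 9.37 to 10.89 after DMPT and 8.39 to 10.13 with vehicle. It rose by 1.32 ± 0.34 (adjusted p = 0.0284 by limma), and its second probe set by 1.61 ± 0.34 (adjusted p = 0.0105 by limma). The call of the first held without vehicle replicate 3 or DMPT replicate 2 and under none of the other 8 omissions, with differences from 1.15 to 1.58. Col18a1 rose by 0.91 ± 0.16 (adjusted p = 0.00476 by limma), and its dimmer probe set, at 0.37 ± 0.16, did not pass. Lamb2, a β chain of other laminins, fell by 0.32 ± 0.095 (adjusted p = 0.0497 by limma). That call was kept when vehicle replicate 5 was left out and lost under the other 9 omissions, with differences from -0.37 to -0.27. The heparan sulfate proteoglycan gene Agrn fell by 0.30 ± 0.076 (adjusted p = 0.0248 by limma), but not without any of DMPT replicates 1, 3 and 4 or vehicle replicates 1 and 3, with differences from -0.33 to -0.29.

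Other integrin subunits stayed mostly below the threshold, with 1 of 15 higher, 0 lower and a median of 0.16. Of these 15 genes, 11 were dimmer than the median probe set. Itga9 was the called gene, at 0.80 ± 0.20 (adjusted p = 0.0251 by limma). It was dim, brighter on average than 34.6% of probe sets, and the call was lost without any of DMPT replicates 3, 4 and 5 or vehicle replicates 4 and 5, with differences from 0.67 to 0.93. A second, dimmer Itga9 probe set differed by 0.043 ± 0.11. Among 23 focal adhesion genes, 1 was higher and 2 were lower, with a median of -0.041.

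Flna, whose product crosslinks actin and binds β integrin tails, had 11.83, 11.32, 11.40, 11.12 and 11.75 in DMPT replicates 1 to 5, and 10.62, 10.29, 10.57, 10.07 and 10.30 in vehicle replicates 1 to 5. The groups were well apart, and Flna rose by 1.11 ± 0.15, or 2.17-fold (adjusted p = 0.00102 by limma). Tns1, an actin-binding protein of mature adhesions, fell by 0.65 ± 0.13 (adjusted p = 0.00983 by limma), and its dimmer probe set, at -0.53 ± 0.17, did not pass (adjusted p = 0.0640 by limma). Parva, a partner of integrin-linked kinase, fell by 0.43 ± 0.097 and in its second probe set by 0.38 ± 0.097 (adjusted p = 0.0152 and 0.0265 by limma). A further list held 10 genes of other matrix receptors and of proteins around them. Of these, the proteoglycan gene Sdc1 rose by 0.62 ± 0.12 and by 0.86 ± 0.14 in its second probe set (adjusted p = 0.00862 and 0.00319 by limma). Bcam, a receptor of laminin α5, fell by 0.30 ± 0.083 (adjusted p = 0.0375 by limma), a call kept without vehicle replicate 1 or 2 and lost under the other 8 omissions, with differences from -0.34 to -0.28. The median of those 10 was 0.17.

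Of the 13 called genes of these 5 lists, 6 lost the call in the fit that included the RNA ratio, namely Col7a1, Agrn, Col4a1, Lamb2, Parva and Bcam (adjusted p from 0.0747 to 0.182 by limma). Lamb2 and Bcam lost it with array medians subtracted (adjusted p = 0.0708 for each by limma), and Col4a1 with array weights (adjusted p = 0.0680 by limma).

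**Figure D4:**
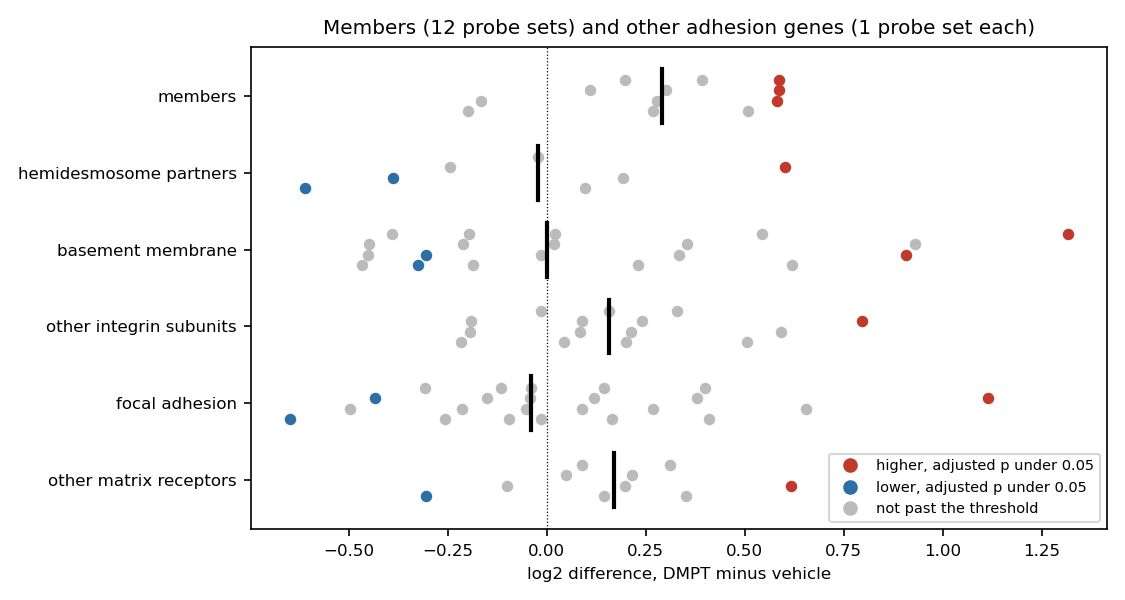
Log2 difference, DMPT minus vehicle, of the 12 member probe sets and of the genes of 5 other adhesion lists, each gene by its brightest probe set; red and blue mark an adjusted p under 0.05, black bars are medians. Most points are grey, and the lists hold called genes on both sides of 0 except the other integrin subunits and the members.

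Markers of cell types that could carry these transcripts also differed. Of 9 basal cell genes, 2 were higher (Krt5 and Ngfr) and 2 lower (Dlk2 and Pdpn), and their mean level lay between 11.73 and 12.08 after DMPT and between 11.49 and 11.73 with vehicle. Of 9 endothelial genes, 6 were higher and 0 lower, with a mean level between 7.36 and 8.56 after DMPT and between 6.31 and 7.45 with vehicle; 8 of the 9 were dimmer than the median probe set. Endothelium makes integrin α6 and type IV collagen as well. Of 8 ciliated cell genes, 0 were higher and 6 lower, with a mean level between 9.58 and 10.99 after DMPT and between 10.82 and 12.01 with vehicle. Of 8 epithelial genes, 3 were higher (Krt7, Krt8 and Cldn7) and 0 lower. Of 9 leukocyte genes, 4 were higher (Cd68, C1qa, C1qb and C1qc) and 2 lower (Cd74 and Lyz2). Their mean level lay between 9.36 and 9.70 after DMPT and between 9.24 and 9.44 with vehicle. Of 10 stromal genes, 0 were called, with a mean level between 9.36 and 10.18 after DMPT and between 9.24 and 10.21 with vehicle. Among 8 muscle genes 1 was lower, and among 7 olfactory neuron genes 1 was higher and 1 lower. Array values have no true 0, so none of these markers can be called absent. The part of basal, endothelial, ciliated or other cells in the differences of Itga6, Col17a1 and the collagen genes was not tested.

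The genes with profiles nearest to Itgb4 over the 10 arrays were Pkd2l2, Ikbkb, Tcp11l2, Nbl1 and Nkain4. Their root mean square distances, after each profile was centred on its own mean, ran from 0.059 to 0.079 log2 units, against a median of 0.25 over all genes. The 5 nearest to Lamb3 were Rsrp1, Luc7l2, Smarca2, Ddx5 and Cetn3, at 0.050 to 0.061, against a median of 0.24. A gene with little variation is near many others by this measure. Of these 10 neighbours, Nbl1 alone passed the test, at -0.27 (adjusted p = 0.0489 by limma). The group difference is part of the distance, so the test results of the neighbours are not independent of how they were picked.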

How the data were processed

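The authors deposited RMA values on a log2 scale, 1 per probe set and array, per the submitters' processing notes, which name neither a version nor a filter. The array is an Affymetrix Rat230_2 per the labels. Of 31099 probe sets, 57 controls were set aside. Of the rest, 20826 had 1 symbol, 436 several and 9780 none; Entrez identifiers of 20758 were found in the RefSeq table for GRCr8, which changed 0 symbols.

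DMPT was set against vehicle with lmFit and eBayes of limma 3.58.1 (R 4.3.3), without covariates, two-sided, adjusted over 31042 probe sets at 0.05 and tested on simulated data. Values after ± are standard errors unless SD is stated. ORIOGEN, which the series' design text names with an FDR limit of 5%, was not run. The labels give each array its own animal and say that animals shared cages, which were not given. Members and gene lists were chosen with earlier results of these data known. The text names every member probe set, called genes of each list up to 6, Dst, Cd151 and Col7a1, and the 5 profiles nearest to Itgb4 and Lamb3. The marker genes other than Krt5, Krt14 among them, were named after their values were seen. Alternatives left out each array, or used the replicate number as a block, array weights, an intensity trend, no dim quartile, subtracted medians, the RNA ratio as a covariate or the mean of a gene's probe sets.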

Additional observations from a re-analysis of the deposited data

Results flagged for a closer look

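Of 58 groups of 5 arrays tested with Dixon's criterion, 4 held an array far from the others; chance gives about 1 in 20. DMPT replicate 4 was the lowest array for Itgb4, at 11.67. Vehicle replicate 2 was the lowest for the Itgb1 probe set 1387346_at, at 10.28. Vehicle replicate 1 was the highest for Krt5, at 12.86. DMPT replicate 1 was the lowest for the within-array difference of Itga3 and Itgb1, at -1.06.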

How the results depend on the processing

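Without single arrays, 0 to 3 of the 12 probe sets were higher and 0 lower. The count was 0 without DMPT replicates 1, 3 or 5 or vehicle replicates 4 or 5, and 1 without DMPT replicate 2 or vehicle replicate 2. The called probe sets were not always the same ones. Without vehicle replicate 2, Plec was the called one. Itga6 1371185_at took the place of 1393558_at without vehicle replicate 3, and Lama3 did so without DMPT replicate 4. Over all probe sets, the omissions gave 1137 to 2130 higher and 1022 to 1886 lower, with the fewest lower without DMPT replicate 3 and 1147 without DMPT replicate 4. The other adhesion genes gave 4 to 9 higher and 3 to 7 lower, against 6 and 7 with all arrays. With the RNA ratio as a covariate, 951 probe sets were lower, 0 of the 12 probe sets were higher, 2 of the other adhesion genes were lower, and the Itgb1 probe set 1387346_at turned to -0.098; without vehicle replicate 2 it was -0.020. The shift of Itga3 minus Itgb1 was 0.036 to 0.17 over the omissions and -0.10 with that Itgb1 probe set. Those of Itga6 minus Itgb4 and Lama3 minus Lamb3 were 0.41 to 0.52 and 0.47 to 0.67. Deviations of same-numbered arrays correlated at -0.067 to 0.23. Arrays with different numbers were not compared, so whether the replicate numbers pair the arrays was not tested. With the replicate number as a block, 4 of the 12 probe sets were higher, 1371185_at of Itga6 being the added one (adjusted p = 0.0453 by limma). The other 3 had a lower adjusted p than without the block (0.0120 and 0.0137 for Itga6 and 0.0158 for Col17a1, by limma). Plec did not pass (adjusted p = 0.116 by limma). Of the other adhesion genes, 4 were lower, Agrn, Lamb2 and Bcam losing the call. The cause of these changes was not tested.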
